A study of Caenorhabditis elegans with 9 samples.

Results

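The genes described here are 10 *C. elegans* genes of the methionine and S-adenosylmethionine (SAM) cycle and of phosphocholine synthesis: *sams-1*, *sams-3*, *sams-4*, *metr-1*, *mtrr-1*, *mthf-1*, *ahcy-1*, *cbs-1*, *pmt-1* and *pmt-2*. They were chosen by their WormBase names and identifiers, from the 46875 genes listed in the normalized counts. The choice used no measured value as a criterion, but it was made with earlier results of these data known. All 10 passed the filter on low values that left 13105 genes to be tested. RNA-seq of polyA RNA compared whole late L2 larvae of 3 genotypes: *sma-3(wk30)*, a loss-of-function allele of the Smad SMA-3 of the BMP-like DBL-1 pathway, *sma-9(ok1628)*, which carries a deletion allele of the Schnurri homolog SMA-9, and the wild-type strain N2. There were 3 biological replicates of each genotype, and every group was synchronized by hypochlorite treatment and grown at 20 °C under 21% oxygen. Each mutant genotype is represented by 1 allele. The comparisons ask how transcript levels differ when either factor is lost.

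SAM is the methyl donor of nearly all methylation reactions in the cell. SAM synthetases make it from methionine, methyltransferases turn it into S-adenosylhomocysteine, and hydrolysis of that product gives homocysteine, which is either methylated back to methionine with a methyl group from folate or passed on to cysteine. In *C. elegans* a large share of SAM is spent on methylating phosphoethanolamine to phosphocholine, the head group precursor of phosphatidylcholine, and loss of *sams-1* is known for fat accumulation.

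Values are read counts relative to library size (CPM), which the authors normalized between libraries. The libraries held 58889275 to 82735807 reads on genes, and the 10 genes had 3178 to 495738 reads in each library. Differences are given as log2 fold changes on the log2(CPM + 1) scale with a standard error (SE), and a gene was called at an adjusted p of at most 0.05 (limma, Benjamini-Hochberg, over all tested genes). Both mutant comparisons use the same 3 wild-type libraries and are not independent of each other. The *sma-3* transcript fell to 13.3 ± 0.79 CPM in *sma-3* libraries, against 23.4 ± 2.71 CPM in wild-type (SD, n = 3 each). The *sma-9* transcript was higher, at 202 ± 24.8 CPM in the libraries labelled *sma-9*, against 98.7 ± 17.7 CPM in wild-type (SD, n = 3 each), so its level does not by itself identify these libraries as *sma-9* mutants. Because whole animals were used, fewer cells of a type and less RNA per cell cannot be told apart.

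In *sma-3* mutants 6 of the 10 genes fell and 1 rose. The genes that fell were *sams-1*, all 3 genes of methionine regeneration (*metr-1*, *mtrr-1* and *mthf-1*), *ahcy-1* and *pmt-2*, and *sams-3* rose. Of all tested genes, 12.2% fell and 9.36% rose in this comparison. In the libraries labelled *sma-9* 6 of the 10 genes fell and none rose (limma; 0 were higher at an unadjusted p under 0.05), where 3.85% of all tested genes fell and 3.02% rose. Here too the genes that fell were *sams-1*, *metr-1*, *mtrr-1*, *mthf-1*, *ahcy-1* and *pmt-2*. The median log2 fold change of the 10 genes was −0.41 in *sma-3* and −0.53 in *sma-9*, while the medians of all tested genes were −0.013 and 0.0045 in the same comparisons. Between the mutants, 3 of the 10 genes were higher in *sma-3* than in *sma-9* (*mtrr-1*, *sams-4* and *pmt-2*) and none was lower (limma; 1 was at an unadjusted p under 0.05), where 8.56% of all tested genes were called higher and 9.10% lower. All 3 libraries of one genotype lay beyond all 3 of the other for 8 of the 10 genes when *sma-3* was set against wild-type (41.4% of all tested genes). This held for 7 when *sma-9* was set against wild-type (22.2%) and for 5 between the mutants (42.4%).

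The calls depended on normalization and on single libraries in part. With library totals made equal in place of the normalization factors of the authors, the tested genes called lower and higher numbered 878 and 1567 in *sma-3*, in place of 1596 and 1227, and 263 and 552 in *sma-9*, in place of 505 and 396. Of the 10 genes, 4 were then lower and 2 higher in *sma-3*, and 4 were lower and 0 higher in *sma-9*. The 6 genes called lower in *sma-9* became 2 without *sma-9* replicate 3 and 3 without wild-type replicate 2. Over all tested genes, those called lower in *sma-9* numbered 273 and 313 in these fits, in place of 505. The single gene called higher in *sma-3* became none without any 1 of the *sma-3* libraries or without wild-type replicate 1 or 2, and 2 without *sma-9* replicate 1 or 3. Over all tested genes, 815, 596 and 545 were called higher in *sma-3* without *sma-3* replicates 1, 2 and 3, in place of 1227. They numbered 1011 and 1007 without wild-type replicates 1 and 2, and 1358 and 1101 without *sma-9* replicates 1 and 3. The 3 genes called higher in *sma-3* than in *sma-9* became 1 without any 1 of the *sma-3* libraries or without *sma-9* replicate 3, and 2 without *sma-9* replicate 1 or 2 or wild-type replicate 1 or 2. The same count over all tested genes, 1122 with all libraries, was 746, 482 and 474 without *sma-3* replicates 1, 2 and 3. It was 1097, 694 and 625 without *sma-9* replicates 1, 2 and 3, and 1104 and 1187 without wild-type replicates 1 and 2. Over the tested genes, which are not independent replicates, wild-type replicate 3 deviated from the wild-type mean much as *sma-9* replicate 2 deviated from the *sma-9* mean (Pearson r = 0.58), and wild-type replicate 2 as *sma-9* replicate 1 (r = 0.61). Without wild-type replicate 3, *sma-3* had 5 of the 10 genes lower and 1 higher than wild-type, *sma-9* had 6 lower and 0 higher, and relative to *sma-9* the *sma-3* libraries had 4 higher and 1 lower. Of all tested genes, 1864 were then lower and 1427 higher in *sma-3*, and 859 and 710 in *sma-9*. Relative to *sma-9*, 1510 were higher and 1635 lower in *sma-3*.

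**Figure D1:**
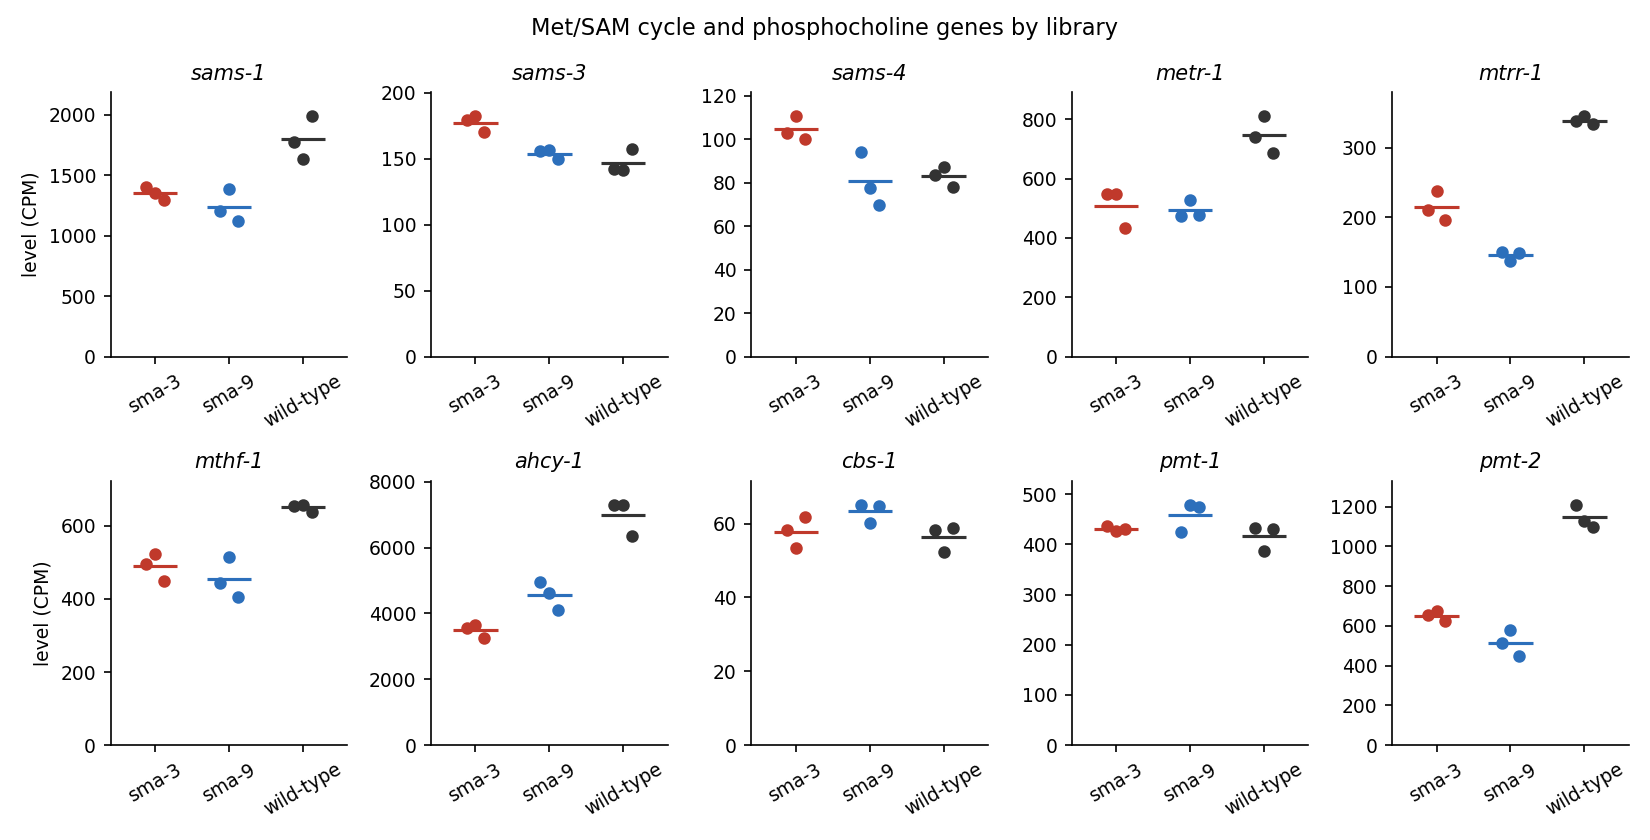
Level of each of the 10 genes in CPM, on a linear axis from 0, in the 3 *sma-3*, 3 *sma-9* and 3 wild-type libraries, with points for libraries and lines for means. For *sams-1*, *metr-1*, *mtrr-1*, *mthf-1*, *ahcy-1* and *pmt-2* all 6 mutant libraries lie below all 3 wild-type libraries, while for *pmt-1* and *cbs-1* the *sma-3* and wild-type points overlap.

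Markers of other tissues moved with the genotypes as well, and differently in each mutant. Of the intestine markers, *elt-2*, *ges-1*, *vha-6*, *ifb-2* and *act-5* passed the filter, and their summed level was 2574 to 2701 CPM in *sma-3*, 1806 to 2244 CPM in *sma-9* and 2679 to 3081 CPM in wild-type libraries. In *sma-9* all 5 fell, by 0.36 to 0.54 on the log2 scale (*elt-2* least, *vha-6* most), whereas in *sma-3* none was called (limma; 0 at an unadjusted p under 0.05). In *sma-3* 2 of 6 hypodermis markers were called, the cuticle collagen genes *dpy-7* (log2 fold change −1.26) and *bli-1* (1.35). The summed level of the list was 356 to 445 CPM in *sma-3* and 595 to 732 CPM in wild-type libraries. *dpy-7* alone had 158 to 239 CPM in *sma-3* and 412 to 499 CPM in wild-type libraries. *elt-3* (0.17), *nhr-25* (0.24), *elt-1* (0.29) and *lin-26* (−0.17) were not called. The yolk protein genes *vit-2* and *vit-6* rose in *sma-3*, where the summed level of the 5 markers of adult stages was 24.5 to 39.5 CPM against 7.09 to 11.6 CPM in wild-type. The other tested marker of that list, *rme-2*, was not called in *sma-3* (0.18, limma adjusted p = 0.356), and *msp-10* and *msp-142* did not pass the filter. In *sma-9* 1 of 4 pharynx markers fell (*myo-2*, −0.88), and *tnt-4* narrowly missed the threshold (−0.73, limma adjusted p = 0.0508). No marker of body wall muscle, neurons or germline was called against wild-type in either mutant (limma; unadjusted p under 0.05 for 3 markers in *sma-3* and 1 in *sma-9*). The part of these shifts in the results below was not tested, except as the ratio to intestine markers given for the 10 genes and some genes of their pathways.

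*sams-1* (X:11965962-11969893 in WBcel235, plus strand), the SAM synthetase gene with the highest level, was downregulated in both mutants. Its levels were 1405, 1351 and 1291 CPM in *sma-3*, 1208, 1388 and 1121 CPM in *sma-9*, and 1776, 1630 and 1989 CPM in wild-type libraries. All 6 mutant libraries lay below the lowest wild-type library, and the *sma-3* and *sma-9* libraries overlapped. The mean was 75.0% of the wild-type mean in *sma-3* (log2 fold change −0.41, SE 0.11, limma adjusted p = 0.0310) and 68.9% in *sma-9* (−0.54, SE 0.11, adjusted p = 0.0208). Neither call was firm. Omission of any 1 of the *sma-3* libraries, wild-type replicate 1 or wild-type replicate 3 took the adjusted p in *sma-3* to between 0.0574 and 0.114. Omission of *sma-9* replicate 3 or wild-type replicate 1 took that in *sma-9* to 0.0580 and 0.0759. The direction was the same in each case. Between *sma-3* and *sma-9* the difference was 0.13 with a 95% confidence interval of −0.13 to 0.38 on the log2 scale.

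*sams-3* and *sams-4* are neighboring genes on chromosome IV (5848657-5850843, plus strand, and 5844061-5846369, minus strand) that encode further SAM synthetases. Unlike *sams-1*, neither was lower in *sma-3*. *sams-3* had 179, 182 and 170 CPM in *sma-3*, 156, 157 and 149 CPM in *sma-9*, and 142.4, 141.7 and 157 CPM in wild-type libraries. Every *sma-3* library lay above every library of the other genotypes, and *sams-3* rose in *sma-3* relative to wild-type (0.27, SE 0.067, adjusted p = 0.0210), whereas in *sma-9* the log2 difference of 0.07 did not pass the test (interval −0.08 to 0.22). The call in *sma-3* was lost without any 1 of the *sma-3* libraries or without wild-type replicate 1 or 2 (adjusted p of 0.0515 to 0.0921).

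*sams-4* had 103, 111 and 100.3 CPM in *sma-3*, 94.1, 77.7 and 69.9 CPM in *sma-9*, and 83.5, 87.2 and 78.1 CPM in wild-type libraries. The *sma-3* libraries again did not overlap the others, but the difference from wild-type missed the threshold (0.33, interval 0.10 to 0.57, adjusted p = 0.0512). It passed without *sma-9* replicate 1 or 3 (adjusted p of 0.0355 and 0.0156). Relative to *sma-9*, *sams-4* was called higher in *sma-3* (0.38, SE 0.11, adjusted p = 0.0361), which did not hold without any 1 of the *sma-3* libraries or without *sma-9* replicate 2 or 3 (adjusted p of 0.0830 to 0.137). For *sams-3* the difference between the mutants was 0.20 (adjusted p = 0.0658), and without wild-type replicate 3 it passed (0.0314).

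Because *sams-3* and *sams-4* are close paralogs and the treatment of reads that fit both is not given in the sources used here, their sum was also taken. A sum does not depend on how such reads were split between the genes, but it misses any that were not counted. The sum was 282 ± 11.2 CPM in *sma-3*, 234.5 ± 15.1 CPM in *sma-9* and 230 ± 4.67 CPM in wild-type (SD, n = 3 each), and *sma-3* libraries did not overlap either of the other genotypes. *sams-3* also shares 18 exon bases with the antisense gene *C06E7.4*, which reached at most 79.1 CPM.

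The makeup of SAM synthetase transcripts was then compared within each library. Per kilobase of exon, *sams-1* made up 81.1%, 79.9% and 80.4% of the summed level of *sams-1*, *sams-3*, *sams-4* and *sams-5* in *sma-3* libraries, 80.6%, 83.7% and 81.5% in *sma-9* libraries, and 87.1%, 86.0% and 88.0% in wild-type libraries. This share is a ratio within each library and does not depend on scaling between libraries. Its size does depend on whether reads that fit both *sams-3* and *sams-4* were counted, which is not given. All mutant shares lay below all wild-type shares. The mean difference from wild-type was −6.57 percentage points in *sma-3* and −5.10 in *sma-9* (two-sided exact permutation p = 0.1 for each, the smallest that 3 libraries against 3 allow). The summed SAM synthetase level was 743 ± 28.7 CPM per kb in *sma-3*, 669.6 ± 63.3 in *sma-9* and 915 ± 81.6 in wild-type (SD, n = 3 each), and neither mutant overlapped wild-type (exact permutation p = 0.1 for each).

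**Figure D2:**
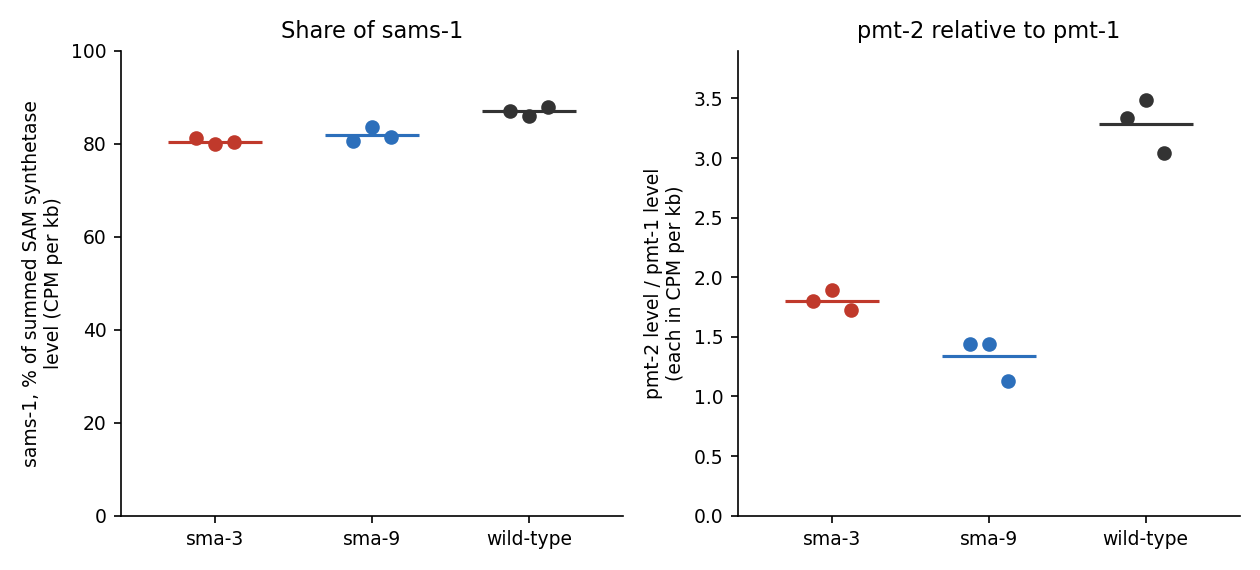
Left, *sams-1* as a percentage of the summed SAM synthetase level (CPM per kb); right, the *pmt-2* level divided by the *pmt-1* level (each in CPM per kb), with points for libraries and lines for means, both axes from 0. All mutant libraries lie below all wild-type libraries in both panels, and on the right all *sma-9* libraries (1.13 to 1.44) also lie below all *sma-3* libraries (1.72 to 1.89).

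The 3 genes of methionine regeneration were all downregulated in both mutants. *mtrr-1* (II:9285975-9289132, plus strand) encodes methionine synthase reductase, which keeps the vitamin B12 cofactor of methionine synthase active. It had 211, 238 and 197 CPM in *sma-3*, 151, 137 and 149 CPM in *sma-9*, and 338, 345 and 333 CPM in wild-type libraries. No library of any genotype overlapped another genotype, with *sma-9* lowest and *sma-3* between. The mean was 63.5% of wild-type in *sma-3* (−0.66, SE 0.08, adjusted p = 0.00117) and 43.0% in *sma-9* (−1.21, SE 0.08, adjusted p = 3.9e-05), and *sma-3* exceeded *sma-9* by 0.56 (SE 0.08, adjusted p = 0.00251). The call against wild-type held under every alternative tried in both mutants, each library left out in turn included. In *sma-3* against *sma-9* it was lost in 1 of the 24 alternatives, when levels were taken relative to intestine markers (0.16, adjusted p = 0.293).

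*metr-1* (II:10926561-10931078, plus strand), the methionine synthase gene, had 548, 547 and 432 CPM in *sma-3*, 475, 527 and 478 CPM in *sma-9*, and 740, 811 and 687 CPM in wild-type libraries. The mutant libraries overlapped each other and lay below all wild-type libraries. The log2 fold change was −0.56 in *sma-3* (SE 0.11, adjusted p = 0.00874) and −0.59 in *sma-9* (SE 0.11, adjusted p = 0.0132), and between the mutants it was 0.04 (interval −0.21 to 0.29). The call in *sma-9* did not hold without *sma-9* replicate 3 or wild-type replicate 2 (adjusted p of 0.0516 and 0.0558).

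*mthf-1* (II:7773904-7777823, minus strand), the methylenetetrahydrofolate reductase gene whose product supplies the methyl group, had 497, 522 and 448 CPM in *sma-3*, 443, 516 and 405 CPM in *sma-9*, and 654, 659 and 639 CPM in wild-type libraries. The wild-type libraries were close together and above all mutant libraries. The log2 fold change was −0.41 in *sma-3* (SE 0.10, adjusted p = 0.0194) and −0.52 in *sma-9* (SE 0.10, adjusted p = 0.0143), with 0.11 between the mutants (interval −0.12 to 0.34). In *sma-3* the call was lost without *sma-3* replicate 1 or 3 or wild-type replicate 1 or 2 (adjusted p of 0.0515 to 0.0847), and in *sma-9* without *sma-9* replicate 3 or wild-type replicate 2 (0.0510 and 0.0511). The gene shares 11 exon bases with the antisense gene *C06A8.6*, which did not exceed 0.570 CPM.

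*ahcy-1* (I:6836469-6838140, plus strand), the S-adenosylhomocysteine hydrolase gene, had the highest level of the 10 genes and the largest fall in *sma-3*. It had 3559, 3649 and 3262 CPM in *sma-3*, 4963, 4623 and 4097 CPM in *sma-9*, and 7307, 7302 and 6340 CPM in wild-type libraries. The genotypes did not overlap, and here *sma-3* rather than *sma-9* was lowest. The mean was 50.0% of wild-type in *sma-3* (−0.999, SE 0.13, adjusted p = 0.00140), a call that held in all alternatives, and 65.3% in *sma-9* (−0.62, SE 0.13, adjusted p = 0.0210). The call in *sma-9* was lost without *sma-3* replicate 2, *sma-9* replicate 2 or 3, or wild-type replicate 1 or 2 (adjusted p of 0.0508 to 0.0861). The difference between the mutants was −0.38 (interval −0.68 to −0.09, adjusted p = 0.0715), and it passed without wild-type replicate 3 (0.0460).

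*cbs-1* (X:10054275-10057528, plus strand) encodes cystathionine β-synthase, which takes homocysteine out of the cycle toward cysteine, and it was not called in any comparison. Its level ranged over 53.3 to 61.8 CPM in *sma-3*, 60.2 to 65.1 CPM in *sma-9* and 52.2 to 58.8 CPM in wild-type libraries. The log2 difference from wild-type was 0.03 in *sma-3* (interval −0.15 to 0.21) and 0.16 in *sma-9* (interval −0.01 to 0.34, adjusted p = 0.265), although the *sma-9* libraries lay above all wild-type libraries.

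The phosphoethanolamine methyltransferase genes differed from each other. *pmt-1* (II:5278090-5282523, minus strand), whose product adds the first methyl group, had 427 to 436 CPM in *sma-3*, 425 to 480 CPM in *sma-9* and 387 to 433 CPM in wild-type libraries. It was not called, with log2 differences from wild-type of 0.05 in *sma-3* (interval −0.13 to 0.23) and 0.14 in *sma-9* (interval −0.04 to 0.32). *pmt-2* (V:4628580-4635263, plus strand), whose product adds the remaining methyl groups, had 657, 677 and 623 CPM in *sma-3*, 511, 579 and 448 CPM in *sma-9*, and 1211, 1128 and 1100 CPM in wild-type libraries. The 3 genotypes did not overlap, with *sma-9* lowest. The mean was 56.9% of wild-type in *sma-3* (−0.81, SE 0.10, adjusted p = 0.00122) and 44.8% in *sma-9* (−1.17, SE 0.10, adjusted p = 0.000227), and both calls held under every alternative.

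Relative to *sma-9*, *pmt-2* was called higher in *sma-3* (0.35, SE 0.10, adjusted p = 0.0430). That call was lost without any 1 of the *sma-3* libraries, without *sma-9* replicate 1 or 3, or without wild-type replicate 1 or 2 (adjusted p of 0.0528 to 0.155). Within each library, the *pmt-2* level per kb was 1.80, 1.89 and 1.72 times the *pmt-1* level per kb in *sma-3*, 1.44, 1.44 and 1.13 times in *sma-9*, and 3.33, 3.48 and 3.05 times in wild-type. This ratio is free of the scaling between libraries. Its log2 difference from wild-type was −0.86 in *sma-3* and −1.31 in *sma-9*, and that of *sma-3* from *sma-9* was 0.44 (two-sided exact permutation p = 0.1 for each of the 3 comparisons, the smallest possible).

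**Figure D3:**
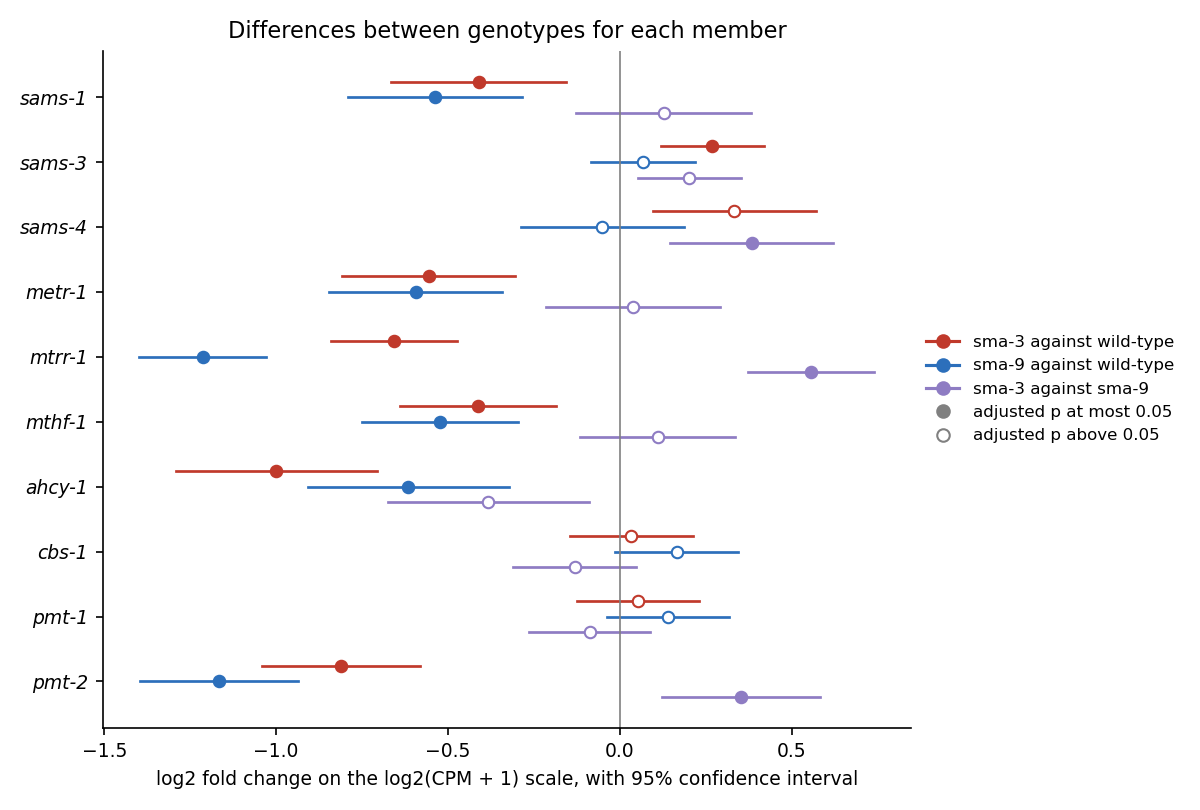
Log2 fold change on the log2(CPM + 1) scale (x axis) with 95% confidence intervals for the 10 genes, colored by comparison (each mutant with wild-type, and *sma-3* with *sma-9*), with filled points for an adjusted p of at most 0.05. The lowest values are −1.21 (*mtrr-1*) and −1.17 (*pmt-2*) in *sma-9* and −0.999 (*ahcy-1*) in *sma-3*, while the intervals of *pmt-1* and *cbs-1* span 0 in every comparison.

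The 10 genes were also compared with the intestine markers. When each library was scaled to its summed intestine markers, an alternative chosen after these markers were seen to be lower in *sma-9*, the median of all tested genes moved to 0.092 in *sma-3* and to 0.46 in *sma-9*. The sum was of CPM, so *act-5* (wild-type mean 1630 CPM) weighed most in it and *elt-2* (39.2 CPM) least. In *sma-3* 4 of the 10 genes were still called lower: *ahcy-1* (−0.88), *pmt-2* (−0.69), *mtrr-1* (−0.54) and *metr-1* (−0.44). On this scale *sams-1* was at −0.29 (adjusted p = 0.135) and *mthf-1* at −0.29 (adjusted p = 0.0911). *sams-4* was called higher in *sma-3* (0.45, adjusted p = 0.0373), *sams-3* was no longer called (0.39, adjusted p = 0.0534), and *cbs-1* (0.15) and *pmt-1* (0.17) were not called. In *sma-9* 2 genes were still called lower, *mtrr-1* (−0.70, adjusted p = 0.00253) and *pmt-2* (−0.65, adjusted p = 0.000765). The other 4 genes that had fallen in *sma-9* lay near the intestine markers: *sams-1* at −0.03, *mthf-1* at −0.01, *metr-1* at −0.08 and *ahcy-1* at −0.10 (adjusted p of 0.401 or more). The 4 genes called higher on this scale in *sma-9* were *sams-3*, *sams-4*, *cbs-1* and *pmt-1* (0.46 to 0.67). On this scale 136 of the tested genes were lower and 9031 higher in *sma-9*, and 489 lower and 1213 higher in *sma-3*.

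**Figure D4:**
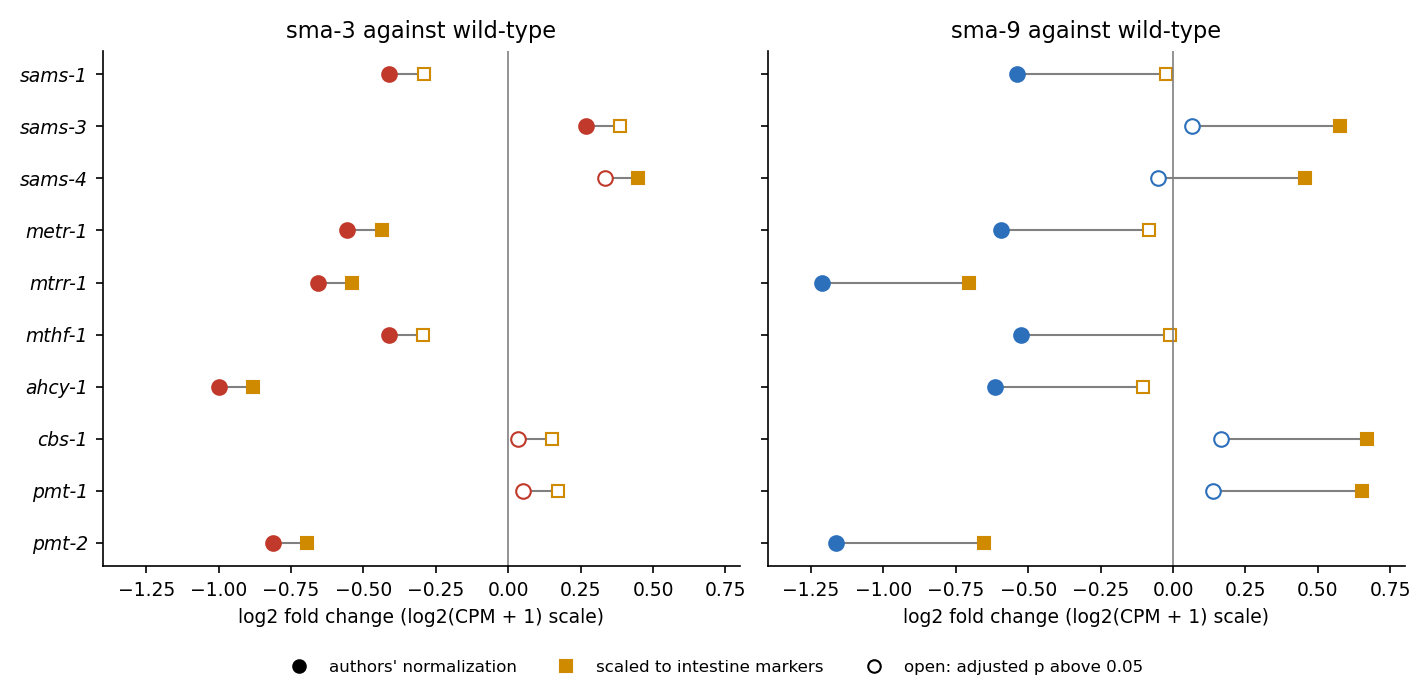
Log2 fold change (x axis, log2(CPM + 1) scale) of the 10 genes against wild-type with the normalization of the authors (circles) and with each library scaled to its summed intestine markers (squares), for *sma-3* (left) and *sma-9* (right), with open symbols for an adjusted p above 0.05. Scaling moves the *sma-9* values of *sams-1*, *metr-1*, *mthf-1* and *ahcy-1* to between −0.10 and −0.01, while *mtrr-1* (−0.70) and *pmt-2* (−0.65) remain called lower.

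The library names carry a number, and what it stands for is not stated. Wild-type replicate 2 and *sma-9* replicate 1, which deviated from their group means alike, share the number 7, whereas wild-type replicate 3 and *sma-9* replicate 2 carry 9 and 8. All *sma-3* libraries have higher numbers than any other library, so that numbering and genotype cannot be told apart for *sma-3*. For *sma-9*, differences could be taken among the low-numbered libraries (1 *sma-9* against 2 wild-type) and among the higher-numbered ones (2 against 1). No *sma-9* library overlapped wild-type for the 6 genes that fell, so the sign within these subsets was fixed and only the size is of use. It was −1.18 and −1.21 for *mtrr-1*, −1.19 and −1.11 for *pmt-2*, and −0.49 and −0.67 for *sams-1*. With 1 library in an arm, these differences have no test.

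Per kilobase of exon, the order of levels in wild-type was *ahcy-1* (4546 ± 362 CPM per kb), *sams-1* (797 ± 80.1), *pmt-2* (728 ± 36.7), *mthf-1* (238 ± 3.83), *pmt-1* (222 ± 14.1), *metr-1* (189 ± 15.7), *mtrr-1* (156 ± 2.78), *sams-3* (73.6 ± 4.32), *sams-4* (43.9 ± 2.43) and *cbs-1* (24.6 ± 1.60; SD, n = 3 each). The ranges of *sams-1* and *pmt-2* overlapped, and those of all other neighbors in this order did not. In *sma-3* *pmt-1* (230 ± 2.49 CPM per kb) stood above *mthf-1* (179 ± 13.7), and in *sma-9* *pmt-1* (245 ± 16.0) likewise stood above *mthf-1* (166 ± 20.6) and *sams-3* (77.1 ± 1.99) above *mtrr-1* (67.1 ± 3.42), in each case without overlap of the libraries. In wild-type the levels per kb of the 10 genes exceeded those of 69.1% (*cbs-1*) to 99.9% (*ahcy-1*) of the tested genes.

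The gene whose pattern over the 9 libraries was most like that of *sams-1* was *haf-4*, an ABC transporter gene needed for gut granules. Likeness was measured as the root mean square difference of log2(CPM + 1) after each gene was centered on its mean, which was 0.069 for *haf-4* and 0.31 for the median tested gene. The next genes were *oac-40* (0.089), *F35C5.12* (0.10), *C29H12.2* (0.10) and *cln-3.3* (0.10). Genotype means were only 0.75 to 1.28 CPM for *oac-40* and 0.98 to 1.81 CPM for *F35C5.12*. At such levels log2(CPM + 1) understates changes, so the likeness of these genes to *sams-1* is on that scale only. *haf-4* had 249 ± 2.73 CPM in *sma-3*, 229 ± 26.6 CPM in *sma-9* and 342 ± 5.96 CPM in wild-type (SD, n = 3 each). Among the 10 genes *mthf-1* was nearest (0.089), with only 2 genes outside the 10 nearer, and *metr-1* followed (0.16, 230 nearer).

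Genes around the cycle were taken from 6 lists of 79 genes, of which 74 were tested. In *sma-3* 21 of the 74 fell and 3 rose, where 12.2% of all tested genes fell and 9.36% rose, and their median log2 fold change was −0.15. In *sma-9* 9 fell and 3 rose, with a median of −0.07, where 3.85% of all tested genes fell and 3.02% rose. Between the mutants 14 were lower and 5 higher in *sma-3*, with a median of −0.09, where 9.10% of all tested genes were lower and 8.56% higher. The 24 calls in *sma-3* became 15 without *sma-3* replicate 3. Of all tested genes, 807 were then called lower and 545 higher, in place of 1596 and 1227. The 12 calls in *sma-9* became 7 without *sma-9* replicate 3 or wild-type replicate 2. All tested genes then gave 273 lower and 214 higher, and 313 and 271, in place of 505 and 396. The 19 calls between the mutants became 10, 6 and 8 without *sma-3* replicates 1, 2 and 3, and 11 and 9 without *sma-9* replicates 2 and 3. Over all tested genes, calls lower in *sma-3* fell from 1193 to 726, 488, 531, 774 and 705 in the same order. Calls higher fell from 1122 to 746, 482, 474, 694 and 625. Relative to intestine markers, 14 of the 74 genes were called in *sma-3*, against 55 in *sma-9*, where the median of all genes was shifted. Of the 21 genes that fell in *sma-3*, 12 were still called lower on this scale, and *folt-2*, *cth-1*, *suox-1*, *coq-5*, *prmt-1*, *prmt-5*, *prmt-7*, *lpin-1* and *chdh-1* were not. Of the 9 that fell in *sma-9* only *nhr-114* was still called lower. Of the genes called between the mutants, all 14 that were lower in *sma-3* were still called, and none of the 5 that were higher. The scaling shifted this comparison as a whole: the median log2 difference over all 13105 tested genes became −0.38. Calls for a lower level then numbered 6688 and calls for a higher level 530, so the kept calls do not set the 14 genes apart from this shift.

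**Figure D5:**
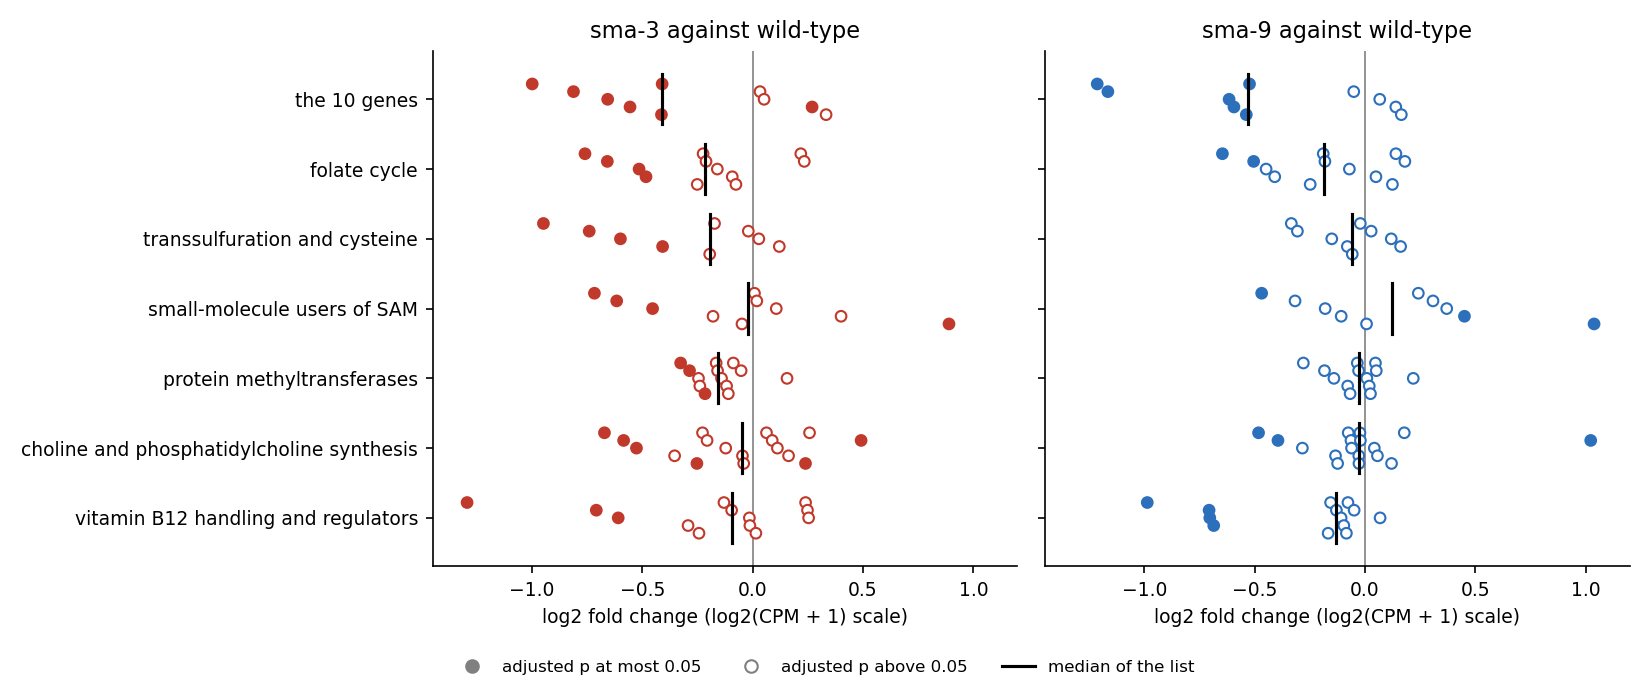
Log2 fold change (x axis, log2(CPM + 1) scale) against wild-type in *sma-3* (left) and *sma-9* (right) of the 10 genes (top) and the tested genes of the 6 surrounding lists, with 1 point per gene, filled at an adjusted p of at most 0.05, and a bar at the list median. The medians of the 10 genes (−0.41 and −0.53) lie lower than those of the 6 lists, and *nhr-114* is the lowest point in *sma-3* at −1.29.

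The folate cycle carries the methyl groups that *mthf-1* hands to methionine synthesis. Of 12 tested folate cycle genes 4 fell in *sma-3* (against 12.2% of all tested genes), with none higher. The list median was −0.22. *mel-32*, serine hydroxymethyltransferase, had 541, 552 and 486 CPM in *sma-3*, 608, 592 and 510.5 CPM in *sma-9*, and 961, 893 and 822 CPM in wild-type libraries. All 6 mutant libraries were below wild-type, and *mel-32* fell in both mutants (−0.76 in *sma-3*, adjusted p = 0.00145, and −0.65 in *sma-9*, adjusted p = 0.00530), also with each library left out. Relative to intestine markers it was still lower in *sma-3* (−0.64) but not called in *sma-9* (−0.13, adjusted p = 0.261). *folt-2*, a folate transporter family gene, also fell in *sma-3* (−0.66, adjusted p = 0.0394, up to 0.129 without 1 library), as did *gcsh-1*, a glycine cleavage system gene (−0.51, adjusted p = 0.00487). In *sma-9* 2 of the 12 fell (against 3.85% of all tested genes), *mel-32* and the purine synthesis gene *atic-1* (−0.50, adjusted p = 0.0165, up to 0.0675 without 1 library). In *sma-3* relative to *sma-9*, *gldc-1* (−0.39), *alh-3* (−0.34) and *gcsh-1* (−0.33) were among 4 genes called lower, and *dao-3* (0.63) and *atic-1* (0.43) were higher, calls that were each lost without at least 1 library.

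Transsulfuration and cysteine genes belong to the metabolism of cysteine, toward which *cbs-1* takes homocysteine out of the cycle. In *sma-3* 4 of 9 tested genes fell (against 12.2% of all tested genes), led by *cysl-2* (−0.95, adjusted p = 0.00159), *cysl-3* (−0.74, adjusted p = 0.00121) and *cth-1* (−0.60, adjusted p = 0.0202), while in *sma-9* none was called (limma; 2 were lower at an unadjusted p under 0.05). *cysl-2*, a cysteine synthase family gene, had 69.1, 60.3 and 77.6 CPM in *sma-3*, 124, 109 and 92.2 CPM in *sma-9*, and 123, 132 and 147 CPM in wild-type libraries. The *sma-3* libraries lay below all others. The difference between the mutants was itself called for *cysl-2* (−0.64), *cysl-3* (−0.68) and *cth-1* (−0.76), also with each library left out. Against wild-type *cth-1* lost its call without any 1 of the *sma-3* libraries (adjusted p up to 0.0704).

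Among the small-molecule users of SAM, polyamine genes moved in opposite directions. *smd-1*, SAM decarboxylase, fell in *sma-3* (−0.72, adjusted p = 0.00487), and *spds-1*, spermidine synthase, fell in *sma-3* (−0.62, adjusted p = 0.00291) and *sma-9* (−0.47, adjusted p = 0.0187, up to 0.0684 without 1 library). *odc-1*, ornithine decarboxylase, which makes putrescine and does not itself take SAM, had 169, 198 and 188 CPM in *sma-3*, 276, 164 and 190 CPM in *sma-9*, and 106, 87.5 and 105 CPM in wild-type libraries. All mutant libraries lay above wild-type, and *odc-1* rose in *sma-3* (0.89, adjusted p = 0.00744) and *sma-9* (1.04, adjusted p = 0.00751), also with each library left out. The name of this list is loose, since beside *odc-1* it also holds the SAM synthetase gene *sams-5*. Of its 10 tested genes 3 fell and 1 rose in *sma-3* (against 12.2% and 9.36% of all tested genes). The third lower gene was *coq-5*, a methyltransferase of ubiquinone synthesis (−0.45, adjusted p = 0.00684). In *sma-9* 1 fell and 2 rose (against 3.85% and 3.02% of all tested genes), the second being the amine methyltransferase family gene *anmt-2* (0.45, adjusted p = 0.00487), which was also lower in *sma-3* than in *sma-9* (−0.50, adjusted p = 0.00183).

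Of 13 tested protein methyltransferase genes 3 fell in *sma-3* (against 12.2% of all tested genes), and the list median was −0.16. The 3 were arginine methyltransferase genes: *prmt-1* (−0.33, adjusted p = 0.0331), *prmt-5* (−0.29, adjusted p = 0.0116) and *prmt-7* (−0.22, adjusted p = 0.0387). Each call was lost without at least 1 of the *sma-3* libraries (adjusted p up to 0.118, 0.0535 and 0.139), and none of the 3 was called relative to intestine markers. In *sma-9* none of the 13 was called (limma; 2 were lower and 1 higher at an unadjusted p under 0.05), and *met-2* (−0.31), *prmt-7* (−0.24) and *prmt-5* (−0.21) were lower in *sma-3* than in *sma-9*, calls that depended on single libraries as well (adjusted p up to 0.174, 0.131 and 0.153).

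Of 17 tested genes of choline use and phosphatidylcholine synthesis, 4 fell and 2 rose in *sma-3*, where 12.2% of all tested genes fell and 9.36% rose, so that the share that rose was near that of all genes. *pcyt-1*, a gene for the cytidylyl transferase that activates phosphocholine, uses the product of the *pmt* genes. It had 67.5, 71.5 and 75.8 CPM in *sma-3*, 100.3, 113 and 125 CPM in *sma-9*, and 105, 112 and 128 CPM in wild-type libraries. *pcyt-1* fell in *sma-3* relative to wild-type (−0.67, adjusted p = 0.00268) and was below *sma-9* by a log2 difference of −0.64 (adjusted p = 0.00358), with no overlap of libraries. The choline kinase family gene *ckb-4* (−0.58, adjusted p = 0.00122) and the lipin gene *lpin-1* (−0.53, adjusted p = 0.00586) also fell in *sma-3*, and these calls against wild-type held with each library left out, but relative to intestine markers that of *lpin-1* was lost (−0.41, adjusted p = 0.103). The betaine transporter gene *snf-3* (0.49, adjusted p = 0.0311) and the choline kinase gene *cka-1* (0.24, adjusted p = 0.0369) rose in *sma-3*, but not without any 1 of the *sma-3* libraries (adjusted p up to 0.116 and 0.132).

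In *sma-9* 2 of the 17 fell and 1 rose (against 3.85% and 3.02% of all tested genes). *ckb-2*, another choline kinase family gene, had 15.0, 12.1 and 18.9 CPM in *sma-3*, 28.2, 27.6 and 29.1 CPM in *sma-9*, and 16.1, 12.3 and 12.1 CPM in wild-type libraries. Only the *sma-9* libraries stood apart, and *ckb-2* rose in *sma-9* relative to wild-type (1.02, adjusted p = 0.00446) and was lower in *sma-3* than in *sma-9* (−0.86, adjusted p = 0.00589), also with each library left out. *ckc-1* (−0.48, adjusted p = 0.0315) and *lpin-1* (−0.39, adjusted p = 0.0407) fell in *sma-9*, each lost without at least 1 library (adjusted p up to 0.0937 and 0.122). In *sma-3* relative to *sma-9*, *ckb-4* was lower (−0.30, adjusted p up to 0.0843 without 1 library) and *snf-3* higher (0.55, up to 0.0933).

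The vitamin B12 and regulator genes included the lowest value in *sma-3* of any gene in the 6 lists. *nhr-114*, a nuclear receptor gene known to act on methionine and SAM metabolism, had 129, 137 and 116 CPM in *sma-3*, 200, 145 and 135 CPM in *sma-9*, and 315, 317 and 308 CPM in wild-type libraries. All mutant libraries lay below all wild-type libraries, and *nhr-114* fell in *sma-3* (−1.29, SE 0.13, adjusted p = 0.000568) and in *sma-9* (−0.99, SE 0.13, adjusted p = 0.00267), also with each library left out and relative to intestine markers (−1.18 and −0.48). *acdh-1*, a propionate breakdown gene known to be repressed by vitamin B12, fell in *sma-3* (−0.71, adjusted p = 0.0121) and *sma-9* (−0.71, adjusted p = 0.0240). *mmaa-1*, whose human counterpart delivers the B12 cofactor to methylmalonyl-CoA mutase, fell in both as well (−0.61, adjusted p = 0.00716, and −0.69, adjusted p = 0.00850). *cblc-1*, the counterpart of the human B12 processing gene, fell in *sma-9* (−0.70, adjusted p = 0.00286) and was higher in *sma-3* than in *sma-9* (0.41, adjusted p = 0.0201), as was the SREBP gene *sbp-1* (0.42, adjusted p = 0.0254). The *acdh-1* calls were lost without *sma-3* replicate 3 in *sma-3* (0.0580) and without *sma-9* replicate 2 or 3 or wild-type replicate 1 or 2 in *sma-9* (up to 0.0937), and those of *cblc-1* and *sbp-1* between the mutants without several single libraries (up to 0.0920 and 0.104). Relative to intestine markers *mmaa-1* (−0.18, adjusted p = 0.226), *cblc-1* (−0.20, adjusted p = 0.210) and *acdh-1* (−0.19, adjusted p = 0.262) were not called in *sma-9*. Of the 13 tested genes of this list 3 fell in *sma-3* and 4 in *sma-9*, where 12.2% and 3.85% of all tested genes fell, and none rose.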

How the data were processed

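The authors made polyA-selected, paired-end libraries from Trizol RNA, mapped the reads to WS245, obtained counts per gene from STAR (2.5.1a) and used edgeR for normalization. The deposited values are log2 CPM with a prior count averaging 2 reads, the lowest being −5.15. The strand setting and the handling of multiply mapping reads are not given in the sources used here. The prior was removed, and whole reads, within 0.05 read, were recovered for 100% of the values. The 3 reads taken as a floor equal 0.035 to 0.0503 CPM, and depth as given covers counting error only.

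Genes reaching 1 CPM in 3 or more of the 9 libraries were analyzed as log2(CPM + 1), which understates the change of low genes. A single limma (3.58.1, R 4.3.3) model held a coefficient for each genotype; figures were drawn in Python 3.11.15 with matplotlib 3.10.9. It was fitted over all 13105 genes with an intensity trend, and its two-sided p-values received a Benjamini-Hochberg adjustment within each comparison. The design had named a count test for raw counts and limma for log values, and limma was used. The limma step was tested on simulated data. Ratios within a library were compared by exact permutation tests. Identifiers (46821 of 46875) were matched to the WBcel235 Ensembl annotation, which gave positions and exon lengths.

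The 10 genes, the 6 pathway lists (folate cycle; transsulfuration and cysteine; small-molecule users of SAM; protein methyltransferases; choline and phosphatidylcholine synthesis; vitamin B12 handling and regulators) and the tissue markers were chosen with earlier results of these data known. From each list the called genes were named, at most 3 lower and 3 higher per comparison, by the size of the log2 fold change; for likeness to *sams-1* the 5 nearest genes were named. *arf-1.2* and *opt-2* were not matched and are not analysed here; *folt-3*, *cbs-2*, *cysl-4* and *ckb-3* did not pass the filter. Alternatives were other pseudocounts, filters, normalizations, variance models, the fit to recovered reads (voom), only 2 genotypes, a replicate block, a library number term, each library left out, and scaling to intestine markers. The columns of all 9 libraries were used.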

Additional observations from a re-analysis of the deposited data

How the results depend on the processing

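Under the 24 alternatives the call against wild-type was kept in all for *mtrr-1* and *pmt-2* in both mutants and for *metr-1* and *ahcy-1* in *sma-3*. *sams-1* lost its call in 10 alternatives in *sma-3* and 8 in *sma-9*, *mthf-1* in 7 and 6, *metr-1* in 4 and *ahcy-1* in 9 in *sma-9*, and *sams-3* in 7 in *sma-3*; *sams-4* gained one in *sma-3* in 10. Of the 10 genes, the number called higher in *sma-3* than in wild-type was 2 with a pseudocount of 5 CPM, equal totals, median-of-ratios size factors, quantile normalization, array quality weights, a fit of only the 2 genotypes or a library number term, and 0 to 2 with 1 library left out. The number lower in *sma-9* was 2 with quantile normalization and 3 in the fit of 2 genotypes, and 2 to 6 with 1 library left out. Between the mutants, 1 gene was lower in *sma-3* with a mean of at least 5 CPM, equal totals, quantile normalization, no intensity trend, array quality weights, voom or the library number term, and 0 to 1 with 1 library left out, and the number higher was 1 without a filter and 1 to 4 with 1 library left out. Calls in the pathway lists numbered 20 in *sma-9* and 35 between the mutants with array quality weights, 31 between the mutants with the library number term, and 7 in *sma-9* in the fit of 2 genotypes. With 1 library left out they were 15 to 27 in *sma-3*, 7 to 17 in *sma-9* and 6 to 28 between the mutants. Over all tested genes, leaving 1 library out gave 545 to 1427 called higher in *sma-3* and 273 to 859 called lower in *sma-9*. In *sma-3* relative to *sma-9* it gave 488 to 1635 lower and 474 to 1510 higher. Array quality weights raised the calls over all genes to 2580 lower and 2081 higher in *sma-3*, 1084 and 862 in *sma-9*, and 2299 and 2102 between the mutants, in place of 1596 and 1227, 505 and 396, and 1193 and 1122. The library number term gave 869 and 621 in *sma-9* and 2153 and 2009 between the mutants, and the fit of 2 genotypes 224 and 221 in *sma-9*. The cause was not tested.

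Scaled to intestine markers, a setting chosen after seeing the data, pathway calls were 14 in *sma-3*, 55 in *sma-9* and 53 between the mutants. Of the 10 genes 2 were lower and 4 higher in *sma-9*, and 5 lower and 0 higher in *sma-3* relative to *sma-9*. Over all 13105 tested genes, calls in *sma-9* against wild-type numbered 136 for a lower level and 9031 for a higher one. Between the mutants these numbers were 6688 and 530, so that 5 of 10 was near the share of all genes. Direction reversed in *sma-9* for *sams-4* (0.46), *atic-1* (0.0022), *ckc-1* (0.012), *lpin-1* (0.12) and *spds-1* (0.037), and between the mutants for *sams-1* (−0.27) and *sams-3* (−0.19), called under neither scaling, and for *sams-4* (−0.0058), *metr-1* (−0.35), *mthf-1* (−0.28) and *pmt-2* (−0.040). This setting moves every gene of a library by the same factor.

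With the replicate number as a block, *sma-3* had 5 of the 10 genes lower and 0 higher, *sma-9* had 5 lower and 0 higher, and *sma-3* relative to *sma-9* had 2 higher and 0 lower. Of all tested genes, 1188 were then lower and 893 higher in *sma-3*, and 322 and 291 in *sma-9*. Relative to *sma-9*, 774 were higher and 789 lower in *sma-3*. The block gave 19, 10 and 13 pathway calls. The numbers do not pair the libraries by design: deviations of same-numbered libraries correlated at −0.63 to 0.40, and not every library correlated best with its own number.

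Leaving out 1 library leaves 2 in that genotype, whose spread is then estimated with the others. Exact tests of 3 against 3 cannot go below 0.1. The limma p-values set a difference against the spread between these replicates only. That spread was estimated over the 3 genotypes together, with an intensity trend over genes. Depth did not limit the 10 genes, each with at least 3178 reads.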
